A study of Mus musculus with 2 samples.

Results

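The proteasome is described here through the 50 protein-coding genes whose names begin with Psma, Psmb, Psmc, Psmd, Psme, Psmf or Psmg followed by a number. They were chosen by name and are all the annotated genes that fit that rule, among 18111 annotated genes with at least 1 read. The tissue was the adrenal gland of B6CASTF1/J females aged 14 days, an F1 cross of a C57BL/6 and a CAST parent. Long-read RNA sequencing, which reads a cDNA molecule from end to end as far as it can, gave 991731 reads in replicate 2, against 1143111 in replicate 1, of which 946553 and 1065570 fell in annotated genes. Both are biological replicates of a single group, for which no treatment is given, so the only comparison is between the libraries. The tissue label of replicate 2 names 1 female and that of replicate 1 names 3 females, but the library descriptions of both name 3 females, so how many animals each library holds is not known.

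The proteasome breaks down proteins that carry ubiquitin chains and so governs protein turnover in every cell, steroid-making cells of the adrenal cortex included. Its 20S core is a barrel of alpha rings, which gate the entry, and beta rings, which hold the proteolytic sites. The 19S cap, whose base is a ring of ATPases and whose lid holds a deubiquitinating enzyme, binds ubiquitin chains, unfolds the substrate and feeds it to the core. Immune cytokines can replace the catalytic beta subunits with inducible ones, and the activators PA28 and PA200 can take the place of the cap.

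The coding stretches below show where reads of a gene parted into different transcripts or starts. Each line runs 5′ to 3′ on the strand of the gene, from GENCODE M21 transcripts on mm10, with introns left out. Capitals mark the bases that are present in one chain of introns and spliced out of the other.
Psmd4: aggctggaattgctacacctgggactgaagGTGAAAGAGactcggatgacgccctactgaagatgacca
Psmd8: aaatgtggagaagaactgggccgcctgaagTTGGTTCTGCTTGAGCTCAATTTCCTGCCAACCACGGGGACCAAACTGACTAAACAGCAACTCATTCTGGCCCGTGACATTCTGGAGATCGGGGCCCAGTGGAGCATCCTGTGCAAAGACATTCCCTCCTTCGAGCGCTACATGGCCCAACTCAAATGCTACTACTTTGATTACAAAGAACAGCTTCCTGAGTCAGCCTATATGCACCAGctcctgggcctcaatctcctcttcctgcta
Psmd9: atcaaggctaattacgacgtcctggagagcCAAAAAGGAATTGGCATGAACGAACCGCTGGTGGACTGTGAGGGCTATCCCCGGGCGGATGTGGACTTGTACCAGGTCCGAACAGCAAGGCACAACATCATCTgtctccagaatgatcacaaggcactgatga
Psmd10: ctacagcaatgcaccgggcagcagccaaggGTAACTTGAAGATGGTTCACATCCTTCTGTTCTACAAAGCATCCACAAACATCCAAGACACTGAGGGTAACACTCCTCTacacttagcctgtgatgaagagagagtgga
Psmg4: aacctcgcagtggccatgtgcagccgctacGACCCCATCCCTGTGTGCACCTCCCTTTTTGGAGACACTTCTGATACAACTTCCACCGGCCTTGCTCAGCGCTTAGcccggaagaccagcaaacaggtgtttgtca
Psmc2: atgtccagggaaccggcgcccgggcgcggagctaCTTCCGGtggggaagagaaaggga
The capitals of the Psmd4 line are at chr3:95033909-95033917, on the minus strand. Those of the Psmd8 line lie within chr7:29177198-29179215, also on the minus strand. The Psmd9 capitals are exon 2 at chr5:123234594-123234696, the Psmg4 capitals exon 2 at chr13:34166061-34166136, both on the plus strand. The Psmd10 capitals are part of exon 4 at chrX:140952147-140952225, on the minus strand. The Psmc2 line is chr5:21786689-21786746, from the start codon of GENCODE to the last base before a second start listed by RefSeq on GRCm38.p6. Its capitals mark CCGGAAG, the core letters bound by ETS factors, read on the other strand. The last line is shown because nearly all Psmc2 reads lacked the exon that lies before it.

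Together the 50 genes took 6031 reads in replicate 2, 0.637% of its gene reads (exact 95% interval 0.621 to 0.653), and 9581 in replicate 1, 0.899% (0.881 to 0.917). The mean share was 0.768 ± 0.185% (SD, n = 2). In replicate 2 49 of the genes had a read and in replicate 1 all 50. Reads carry no molecular identifiers, so intervals, standard errors and p-values cover counting error in these libraries and do not measure the spread between animals. CPM stands for counts per 1000000 reads in annotated genes, and 3 reads, the limit that a count of 0 allows, correspond to 3.17 CPM in replicate 2, against 2.82 CPM in replicate 1.

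The libraries differed in tissue makeup. Summed over 5 markers each, genes of the adrenal cortex took 2.39% of gene reads in replicate 2, against 5.36% in replicate 1, and chromaffin genes 0.445% and 1.16%. Summed over 7 genes, hepatocyte markers took 4.91% of gene reads in replicate 2, against 0.0440% in replicate 1, and all 7 passed the test as higher. Of 6 skeletal muscle markers, the 4 with enough reads were higher in replicate 2. Summed over all 6, these markers took 0.171% of gene reads in replicate 2, against 0.00610% in replicate 1. Myh1 and Tnnt3 had 0 reads in replicate 1. Of 8 leukocyte markers, 6 had enough reads, 2 were higher in replicate 2 and 1 was lower, with sums of 0.0289% and 0.0195%. The part of these tissues in the differences below was not tested, and in bulk tissue fewer cells of a type and less RNA per cell cannot be told apart.

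The constitutive subunits of the core and cap that fit the name rule were all expressed in both libraries. The 31 constitutive subunits ran from 70.8 to 329.6 CPM in replicate 2, with a median of 172, and from 103 to 479 CPM in replicate 1, with a median of 252. Divided by the length of the leading transcript, levels ran from 29.7 to 392 CPM per kb in replicate 2 and from 43.5 to 553 in replicate 1. The 14 subunits of the core summed to 2618 CPM in replicate 2, against 3780 CPM in replicate 1, and the 17 of the cap to 3013 and 4176 CPM. On that scale Psmb6 was at the top with 392 CPM per kb in replicate 2, against 553 in replicate 1. Psma7 followed with 361 and 524, and Psmb5 had 249 and 466. The order of Psmb5 and Psmb3, which had 254 CPM per kb in replicate 2, against 329.6 in replicate 1, differed between the libraries. Mean CPM and mean CPM per kb shared 6 of their leading 10 genes, with a Spearman correlation of 0.906 across the 48 members with a multi-exon transcript, which share both libraries.

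**Figure D1:**
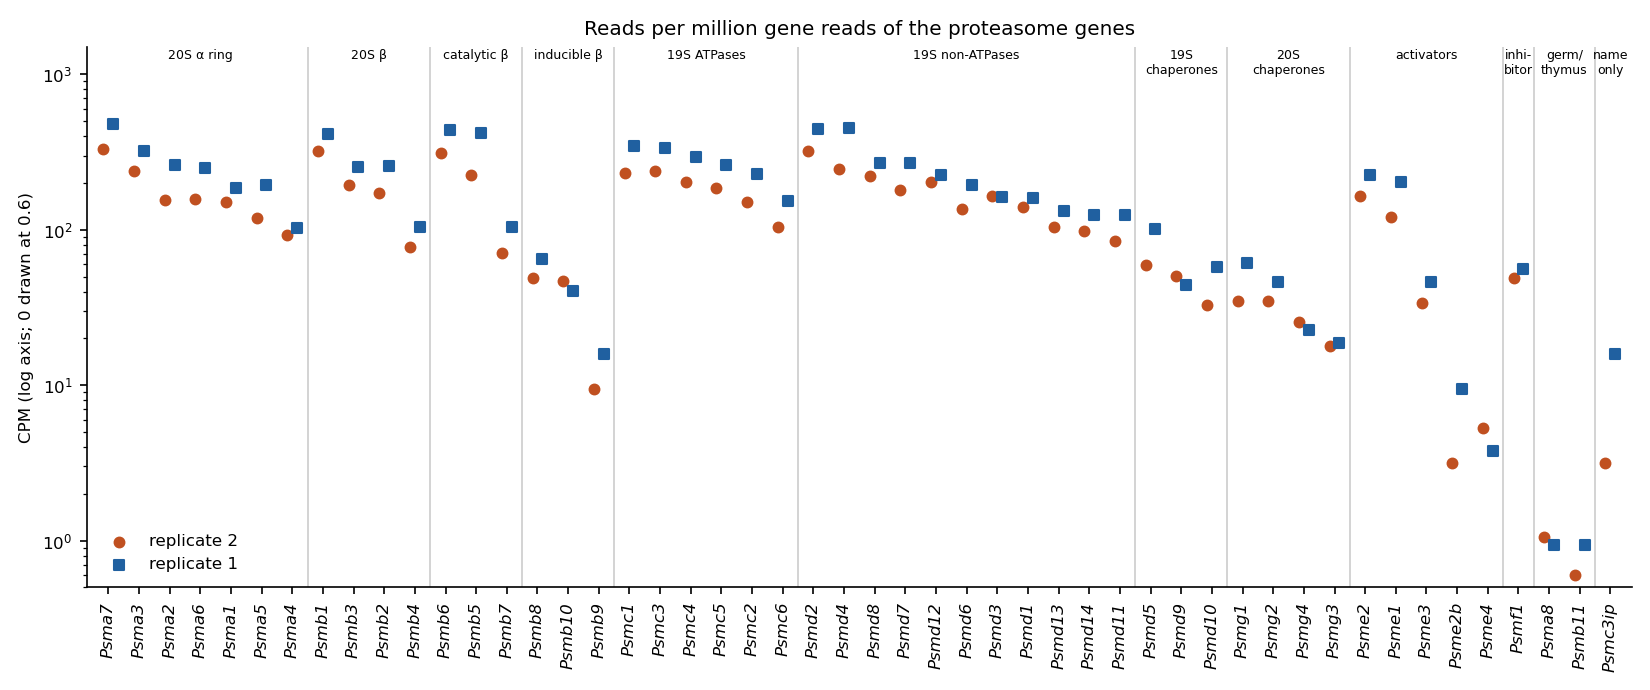
CPM over gene reads (log axis) of the 50 genes in replicate 2 (circles) and replicate 1 (squares), grouped by role. Constitutive core and cap subunits lie between 70.8 and 479 CPM, inducible subunits at or below 64.8 CPM, assembly factors at or below 101 CPM, and Psma8, Psmb11, Psme4 and Psme2b at or below 9.38 CPM.

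Between the libraries, most subunit genes took a smaller share of reads in replicate 2. An exact conditional binomial test, two-sided, with Benjamini-Hochberg adjustment over all 9211 genes with at least 20 summed reads, called 26.4% of genes, 8.58% as higher and 17.9% as lower in replicate 2. Of the 46 proteasome genes that reached 20 reads, 28 (60.9%) were lower, 0 higher and 18 not called, with 30 at an unadjusted p under 0.05. Their median log2 ratio of replicate 2 over replicate 1 was -0.49, against -0.28 for all genes tested, and 42 of the 46 ratios (91.3%) were below 0, against 68.4% of all genes. The test reaches small differences more easily in genes with many reads. Among 1980 other genes in the same range of 178 to 822 summed reads as the constitutive subunits, 39.1% were lower and 10.5% higher, with a median of -0.33, while 22 of the 31 constitutive subunits (71.0%) were lower, with a median of -0.50. The 4 untested genes were Psme2b, Psme4, Psma8 and Psmb11.

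The direction of these ratios depended on the scaling. Each scaling adds 1 value to every log2 ratio, so the difference of -0.21 between the median of the proteasome genes and that of all genes is the same under each by construction. The median of the proteasome genes was -0.24 under TMM and under DESeq2 size factors, where the median of all genes was -0.03 and -0.04, and it turned to 0.10 under ERCC spike-in scaling, where that of all genes was 0.31. Under TMM and DESeq2 scaling 7 of the 28 calls remained, in Psma2, Psma5, Psma6, Psma7, Psmb5, Psmd4 and Psme1, with 0 members higher. That is 15.2% of the 46, where TMM called 6.98% of all genes lower and 11.9% higher and DESeq2 scaling 7.12% and 11.7%. Spike-in scaling raised every ratio by 0.59, so that 30 of the 42 ratios below 0, 17 of them called, turned positive. There Psmb5 and Psmd4 were lower and Psmb10, Psmd3, Psmd9 and Psmd12 higher, where 1.85% of all genes were lower and 22.5% higher. When edgeR's exact test was given a coefficient of variation of 0.2 for replicates, 0 of the 46 were called at a smallest adjusted p of 0.189, and 3 had an unadjusted p under 0.05, while 0.727% of all genes were called lower and 4.84% higher. Ratios and calls below are scaled by total gene reads.

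**Figure D2:**
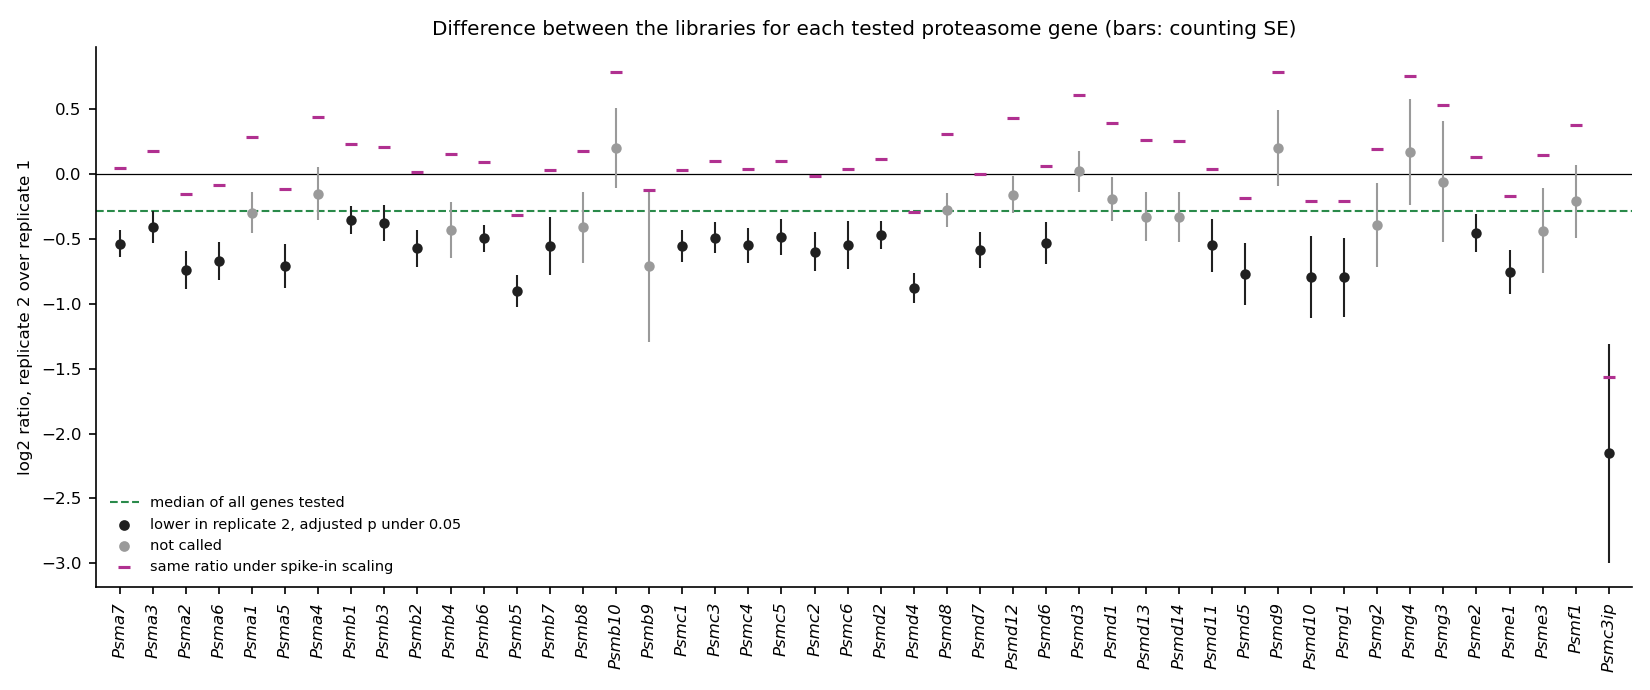
Log2 ratio of replicate 2 over replicate 1 for each of the 46 tested genes, with counting standard errors as bars. Dark points mark the 28 genes lower in replicate 2, the dashed line the median of all genes tested at -0.28, and short lines the ratio under spike-in scaling, where 30 of the 42 ratios below 0 turn positive.

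The alpha ring forms the outer gate of the core. Of its 7 genes 5 were lower in replicate 2, beside 39.1% of other genes in the read range of the constitutive subunits. The 7 had a median log2 ratio of -0.54, or -0.26 relative to all genes. Under spike-in scaling 4 of the 7, Psma1, Psma3, Psma4 and Psma7, turned positive. Psma7 had 312 reads (329.6 CPM) in replicate 2, against 510 (479 CPM) in replicate 1, a log2 ratio of -0.54 (SE 0.10, exact binomial adjusted p = 2.14e-06). Psma2 had 148 reads (156 CPM) in replicate 2, against 279 (262 CPM) in replicate 1, the lowest ratio of the ring at -0.74 (SE 0.15, exact binomial adjusted p = 2.87e-06). Psma5 had 112 and 206 reads (-0.71, SE 0.17, exact binomial adjusted p = 2.01e-04) and Psma6 149 and 267 (-0.67, SE 0.15, exact binomial adjusted p = 4.35e-05). These 4 genes were called lower under TMM and DESeq2 scaling too. Psma3 had 227 reads in replicate 2, against 340 in replicate 1 (-0.41, SE 0.12, exact binomial adjusted p = 0.00519). Psma1, with 143 and 198 reads, and Psma4, with 88 and 110, did not pass, at ratios of -0.30 (SE 0.16) and -0.15 (SE 0.21). Psma8, which takes the place of Psma7 in male germ cells, had 1 read in each library.

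The 4 beta subunits without a proteolytic site, Psmb1 to Psmb4, had a median log2 ratio of -0.40, or -0.12 relative to all genes. Of the 4, 3 were lower, beside 39.1% of other genes in the read range of the constitutive subunits, while all 4 turned positive under spike-in scaling. Psmb1 had 304 reads (321 CPM) in replicate 2, against 438 (411 CPM) in replicate 1, a ratio of -0.36 (SE 0.11, exact binomial adjusted p = 0.00545). Psmb2 had 163 and 273 reads (-0.57, SE 0.14, exact binomial adjusted p = 4.26e-04) and Psmb3 184 and 269 (-0.38, SE 0.14, exact binomial adjusted p = 0.0273). Psmb4, with 73 reads in replicate 2, against 111 in replicate 1, did not pass (-0.43, SE 0.22, exact binomial adjusted p = 0.131).

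The catalytic subunits of the constitutive core were all lower in replicate 2, though Psmb6 and Psmb7 turned positive under spike-in scaling. Of other genes in the read range of the constitutive subunits, 39.1% were lower. Psmb5, which carries the chymotrypsin-like site, had 212 reads (224 CPM) in replicate 2, against 446 (419 CPM) in replicate 1. Its ratio of -0.90 (SE 0.12, exact binomial adjusted p = 2.86e-13) was the lowest of the constitutive subunits, and the gene was called lower under all 4 scalings. Psmb6, the caspase-like subunit, had 296 reads (313 CPM) and 470 (441 CPM), a ratio of -0.50 (SE 0.11, exact binomial adjusted p = 2.89e-05). Psmb7, the trypsin-like subunit, had 67 reads (70.8 CPM) and 111 (104 CPM), a ratio of -0.55 (SE 0.22, exact binomial adjusted p = 0.0495). On mm10 Psmb5 lies at chr14:54614119-54618022, near Psmb11, the subunit of thymic cortical epithelium. Psmb11 had 0 reads in replicate 2, against 1 in replicate 1.

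The 3 inducible catalytic subunits form the immunoproteasome, and 0 of them were called. Psmb8, which takes the place of Psmb5, had 46 reads (48.6 CPM) in replicate 2, against 69 (64.8 CPM) in replicate 1, a ratio of -0.41 (SE 0.27, exact binomial adjusted p = 0.287). Of these 115 Psmb8 reads, 27 were in the read class named Genomic, against 0 of 658 for Psmb5. Without Genomic reads the Psmb8 ratio was -0.17 (exact binomial adjusted p = 0.755). Psmb9, which takes the place of Psmb6, had 9 reads (9.51 CPM) and 17 (16.0 CPM), a ratio of -0.71 (SE 0.58, exact binomial adjusted p = 0.420). Psmb10, which takes the place of Psmb7, had 44 reads (46.5 CPM) and 43 (40.4 CPM), a ratio of 0.20 (SE 0.31, exact binomial adjusted p = 0.704). Under spike-in scaling Psmb10 was called higher.

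Per read, inducible subunits were the minority of catalytic transcripts. They made up 99 of 674 catalytic reads in replicate 2, 14.7% (exact 95% interval 12.1 to 17.6), and 129 of 1156 in replicate 1, 11.2% (9.40 to 13.1), with a mean of 12.9 ± 2.50% (SD, n = 2). With Known reads only, the mean was 10.9%. The shares by pair count every read class, Genomic reads of Psmb8 included. The share differed by exchange pair. Psmb10 was 39.6% (30.5 to 49.4) of the reads of Psmb10 and Psmb7 in replicate 2, against 27.9% (21.002 to 35.7) in replicate 1. Psmb8 was 17.8% (13.4 to 23.1) of the reads of its pair in replicate 2, against 13.4% (10.6 to 16.6) in replicate 1. Psmb9 was 2.95% (1.36 to 5.53) and 3.49% (2.05 to 5.53) of its pair. In both libraries Psmb10 had the highest share and Psmb9 the lowest, with intervals of those 2 that did not overlap, while the intervals of each pair overlapped between the libraries. Per kb of the leading transcript, the inducible share was 9.34% in replicate 2, against 6.92% in replicate 1, with 36.8% and 25.5% for Psmb10, 10.7% and 7.87% for Psmb8, and 1.76% and 2.09% for Psmb9.

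**Figure D3:**
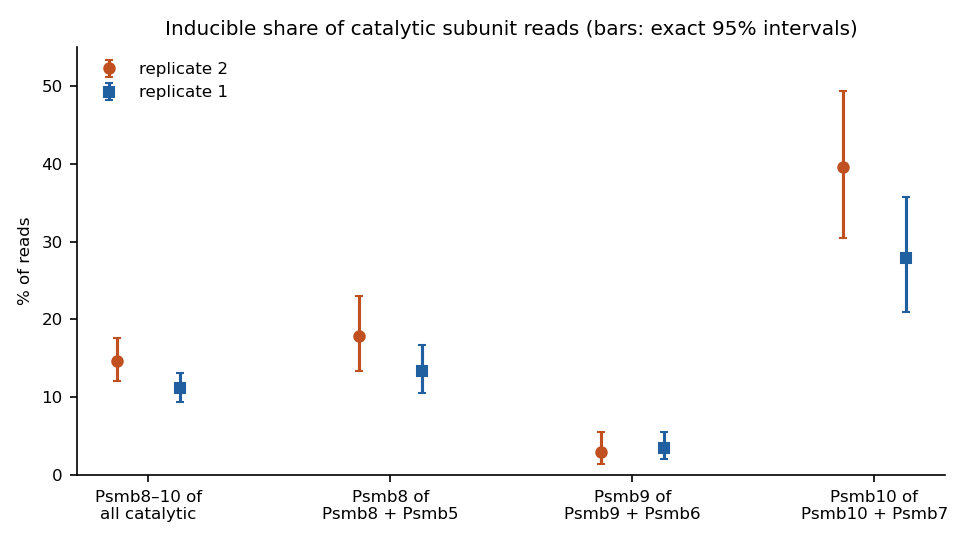
Percent of catalytic subunit reads from the inducible genes, for all 3 together and for each exchange pair, in replicate 2 (circles) and replicate 1 (squares) with exact 95% intervals. The share of Psmb10 in its pair is 39.6% and 27.9%, and that of Psmb9 is 2.95% and 3.49%.

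Psmb9 and Psmb8 lie on chromosome 17 beside the peptide transporter genes of antigen presentation, in the order Psmb9, Tap1, Psmb8 and Tap2 on mm10 (Psmb9 at chr17:34181987-34187764 and Tap2 at chr17:34203527-34216321). In RefSeq the starts of Psmb9 and Tap1, which point away from each other, are 226 bases apart. The GENCODE spans overlap, with Tap1 starting at chr17:34187553 on the other strand, inside the span of Psmb9. Tap1 had 21 reads in replicate 2, against 26 in replicate 1, and Tap2 37 and 61, and neither was called. Of 9 tested genes of class I presentation and its control, 2 were higher in replicate 2 and 0 lower, beside 8.58% and 17.9% of all genes. One of them, B2m, the light chain of class I molecules, had 198 reads in replicate 2, against 146 in replicate 1 (0.61, SE 0.16, exact binomial adjusted p = 7.28e-04). Irf1, which drives the inducible subunits, had 17 and 30 reads and was not called.

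The 6 ATPases of the base ring, which unfold substrates, were all lower in replicate 2, but all except Psmc2 turned positive under spike-in scaling. Their log2 ratios ran from -0.60 to -0.49, with a median of -0.55, or -0.27 relative to all genes. Of other genes in the read range of the constitutive subunits, 39.1% were lower. Psmc1 had 221 reads (233 CPM) in replicate 2, against 366 (343 CPM) in replicate 1 (-0.56, SE 0.12, exact binomial adjusted p = 4.87e-05). Psmc3 had 227 reads (239.8 CPM) and 359 (337 CPM) (-0.49, SE 0.12, exact binomial adjusted p = 4.57e-04), and Psmc4 191 (202 CPM) and 315 (296 CPM) (-0.55, SE 0.13, exact binomial adjusted p = 2.30e-04). Under TMM and DESeq2 scaling 0 of the 6 were called. Psmc5 had 176 reads in replicate 2, against 278 in replicate 1 (-0.49, SE 0.14, exact binomial adjusted p = 0.00268). Psmc2 had 143 and 244 reads (-0.60, SE 0.15, exact binomial adjusted p = 5.27e-04) and Psmc6 99 and 163 (-0.55, SE 0.18, exact binomial adjusted p = 0.0145).

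The 11 other cap subunits were less uniform, with 5 lower, 6 not called and a median ratio of -0.33, or -0.05 relative to all genes. Of other genes in the read range of the constitutive subunits, 39.1% were lower. Of the 11 only Psmd4 was below 0 under spike-in scaling. Psmd4, a ubiquitin receptor, had 234 reads (247 CPM) in replicate 2, against 484 (454 CPM) in replicate 1. At a ratio of -0.88 (SE 0.11, exact binomial adjusted p = 1.11e-13) it was lower under all 4 scalings. Psmd2, the scaffold where ubiquitin shuttle proteins dock, had 303 reads (320.1 CPM) and 473 (444 CPM), a ratio of -0.47 (SE 0.11, exact binomial adjusted p = 7.35e-05). Psmd1, the other large scaffold of the base, had 132 and 170 reads and was not called (-0.19, SE 0.17). The lid subunits divided. Psmd7, which pairs with the deubiquitinase Psmd14, had 170 and 287 reads (-0.58, SE 0.14, exact binomial adjusted p = 2.03e-04), Psmd6 128 and 208 (-0.53, SE 0.16, exact binomial adjusted p = 0.00594) and Psmd11 80 and 132 (-0.55, SE 0.20, exact binomial adjusted p = 0.0304). Psmd14 itself, with 93 reads in replicate 2, against 132 in replicate 1, was not called (-0.33, SE 0.19), nor was Psmd13, with 99 and 140 (-0.33, SE 0.19). Psmd8, with 210 reads (222 CPM) and 287 (269 CPM), stood at -0.28 (SE 0.13, exact binomial adjusted p = 0.105). Psmd3 and Psmd12 were not called either. Psmd3 had 155 reads (164 CPM) in replicate 2, against 172 (161 CPM) in replicate 1 (0.02, SE 0.16), and Psmd12 191 (202 CPM) and 240 (225 CPM) (-0.16, SE 0.14). Under spike-in scaling both were called higher.

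Assembly chaperones, which help subunits find their places and leave the finished particle, had 17 to 108 reads each. Among those of the 19S base, Psmd5 had 56 reads (59.2 CPM) in replicate 2, against 108 (101 CPM) in replicate 1 (-0.77, SE 0.24, exact binomial adjusted p = 0.00568). Psmd10, also known as gankyrin, had 31 reads (32.8 CPM) and 61 (57.2 CPM) (-0.79, SE 0.32, exact binomial adjusted p = 0.0456). Psmd9 had 48 reads (50.7 CPM) and 47 (44.1 CPM) and was not called at 0.20 (SE 0.29), though called higher under spike-in scaling. Of the 4 chaperones of the core, 1 was lower, where 17.9% of all genes tested were lower. Psmg1 had 33 reads (34.9 CPM) in replicate 2, against 65 (61.0 CPM) in replicate 1 (-0.80, SE 0.31, exact binomial adjusted p = 0.0344). Its partner Psmg2 had 33 and 49 reads (-0.39, SE 0.32), Psmg3 17 and 20 (-0.06, SE 0.47) and Psmg4 24 and 24 (0.17, SE 0.41). None of these 3 passed.

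The regulators that bind the ends of the core included 5 activator genes and 1 inhibitor. Psme1 and Psme2, which together form PA28 and are induced by interferon gamma, lie near each other at chr14:55578123-55581529 and chr14:55587441-55591113 and were both lower in replicate 2. Psme1 had 114 reads (120.4 CPM) in replicate 2, against 217 (204 CPM) in replicate 1 (-0.75, SE 0.17, exact binomial adjusted p = 4.21e-05), and was also called under TMM and DESeq2 scaling. Psme2 had 156 reads (165 CPM) and 241 (226 CPM) (-0.45, SE 0.15, exact binomial adjusted p = 0.0112), and turned positive under spike-in scaling. Psme3, which forms the nuclear activator, had 32 and 49 reads and was not called (-0.44, SE 0.33). Psme4, which encodes PA200, had 5 reads in replicate 2, against 4 in replicate 1, a ratio of 1.41 with an exact counting interval of 0.303 to 7.09. Psme2b had 3 and 10 reads, a ratio of 0.338 (0.0597 to 1.31). Its transcript is 99.4% identical to that of Psme2, so reads of the pair may have been split. Psmf1, which encodes the inhibitor PI31, had 46 reads (48.6 CPM) and 60 (56.3 CPM) and was not called (-0.21, SE 0.28). Psmc3ip, a factor of meiotic recombination that meets the rule through its name, had 3 reads in replicate 2, against 17 in replicate 1. The ratio was 0.199 with an exact counting interval of 0.0373 to 0.687, and the exact binomial adjusted p was 0.0249.

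Sequence copies of the members elsewhere in the annotation drew few reads. At 90% identity over at least 50% of the transcript, 10 members had 20 copies, 19 of them pseudogenes. Psme4, Psme2b and Psmb11, whose reads gave no annotated leading chain, were not searched. The copies summed to 3 reads in replicate 2, against 12 in replicate 1, of which pseudogenes held 0 and 2.

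Genes that work with the proteasome gave the same comparison outside the named families. Of 9 tested partners 4 were lower and 0 higher, beside 17.9% and 8.58% of all genes tested. Of the 4, Sem1 turned positive under spike-in scaling. Zfand5, a stress-linked activator, had 187 reads in replicate 2, against 398 in replicate 1 (-0.92, SE 0.13, exact binomial adjusted p = 3.16e-12). Pomp, which matures the core, had 169 and 288 (-0.60, SE 0.14, exact binomial adjusted p = 1.37e-04), and Akirin2, which brings proteasomes into the nucleus in human cells, 35 and 86 (-1.11, SE 0.29, exact binomial adjusted p = 4.32e-04). The lid subunit Sem1 had 181 and 265 (-0.38, SE 0.14, exact binomial adjusted p = 0.0292). All 5 tested genes of ubiquitin and its activating enzyme were lower, and turned positive under spike-in scaling, among them Ubb with 2408 reads in replicate 2, against 3869 in replicate 1 (-0.51, SE 0.04, exact binomial adjusted p = 6.67e-42). Of 8 substrate shuttles and p97 factors 2 were lower, Ufd1 (64 and 143 reads) and Vcp (446 and 603), which turned positive under spike-in scaling. Of 4 genes that control proteasome transcription 0 were called. Nfe2l1, the factor that raises proteasome genes when activity is short, had 236 reads in replicate 2, against 282 in replicate 1 (-0.09, SE 0.13, exact binomial adjusted p = 0.694).

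Letters read by such factors were looked up in the promoters, 250 bases before to 50 after each RefSeq start on GRCm38.p6, on both strands. A promoter was listed for 42 members and for 27025 genes in all, which include genes without reads here. A gene counted if any of its listed starts held a match, so genes with more starts had more windows. TGACNNNGC, the antioxidant response element bound by Nfe2l1, was in the promoters of 6 members (14.3%), among them Psmb5, Psmb6 and Psmd12, and of 14.0% of all genes. Its looser form TGANNNNGC, which every match of the stricter form also meets, was in 24 (57.1%) and 45.0%. CCGGAAG, letters bound by ETS factors, was in those of 15 members (35.7%) and 9.93% of all genes, and GGGCGG, the GC box, in 23 (54.8%) and 38.2%. CCAAT was in 15 (35.7%) and 41.1%, the palindrome bound by Nrf1, nuclear respiratory factor, in 2 (4.76%) and 1.07%, and TGACGTCA, the cyclic AMP response element, in 0 and 2.03%. A match describes the letters of the window and not a bound site, and ETS and GC-box letters are not independent of base composition.

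The reads of most members ran through the whole annotated chain of introns. Known transcripts held 87.5% (exact 95% interval 86.7 to 88.4) of the members' reads in replicate 2, against 85.5% (84.8 to 86.2) in replicate 1, and 78.2% and 76.1% of the reads of all genes. Partial chains held 8.82% and 9.88%, unannotated orders of known splice sites 1.48% and 1.68%, and unannotated splice sites 1.58% and 1.92%. The share of a gene's reads on a whole chain had a median of 93.5% over the 46 genes, all of which have introns. Over all genes the median share was 87.7%, where genes without introns count as 0%. Fisher's exact test of that share between the libraries, adjusted over all genes, called 0.304% of genes and 0 of the 46, of which 3 had an unadjusted p under 0.05.

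Psmc2, at chr5:21785283-21803787, was the member whose reads went most against its annotated transcript. A chain that holds all introns but the first took 132 of 143 reads in replicate 2, 92.3% (86.7 to 96.1), and 232 of 244 in replicate 1, 95.1% (91.6 to 97.4). Only 3 of 142 spliced reads in replicate 2, against 0 of 244 in replicate 1, spanned the first intron of 1132 bases, while 142 and 243 spanned the last. Pooled over the libraries the first intron was in 0.777% of spliced reads, against a median of 93.9% over the 46 genes, 35 of which reached 90%. RefSeq lists 2 starts for Psmc2, 1472 bases apart, 21785275 and 21786747, and the second lies in exon 2 of GENCODE (chr5:21786650-21786884). The deposited models take their ends from the annotation, so the base of exon 2 at which these reads begin is not known. The printed Psmc2 line is the coding stretch of exon 2 that a transcript from the second start would lack.

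Psma7 and Psmd1 also had a sizeable partial chain. In Psma7 a chain of the last 4 exons took 90 of 312 reads in replicate 2, 28.8% (23.9 to 34.2), and 125 of 510 in replicate 1, 24.5% (20.8 to 28.5), so the first intron was in 68.5% and 71.5% of spliced reads. In Psmd1, whose leading transcript has 24 introns, a chain that stops after the first 22 exons took 9 of 132 reads in replicate 2, 6.82% (3.16 to 12.5), and 39 of 170 in replicate 1, 22.9% (16.9 to 30.0). The whole-chain share of Psmd1 was 80.3% and 65.9%, which did not pass (Fisher's exact test, adjusted p = 0.520).

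**Figure D4:**
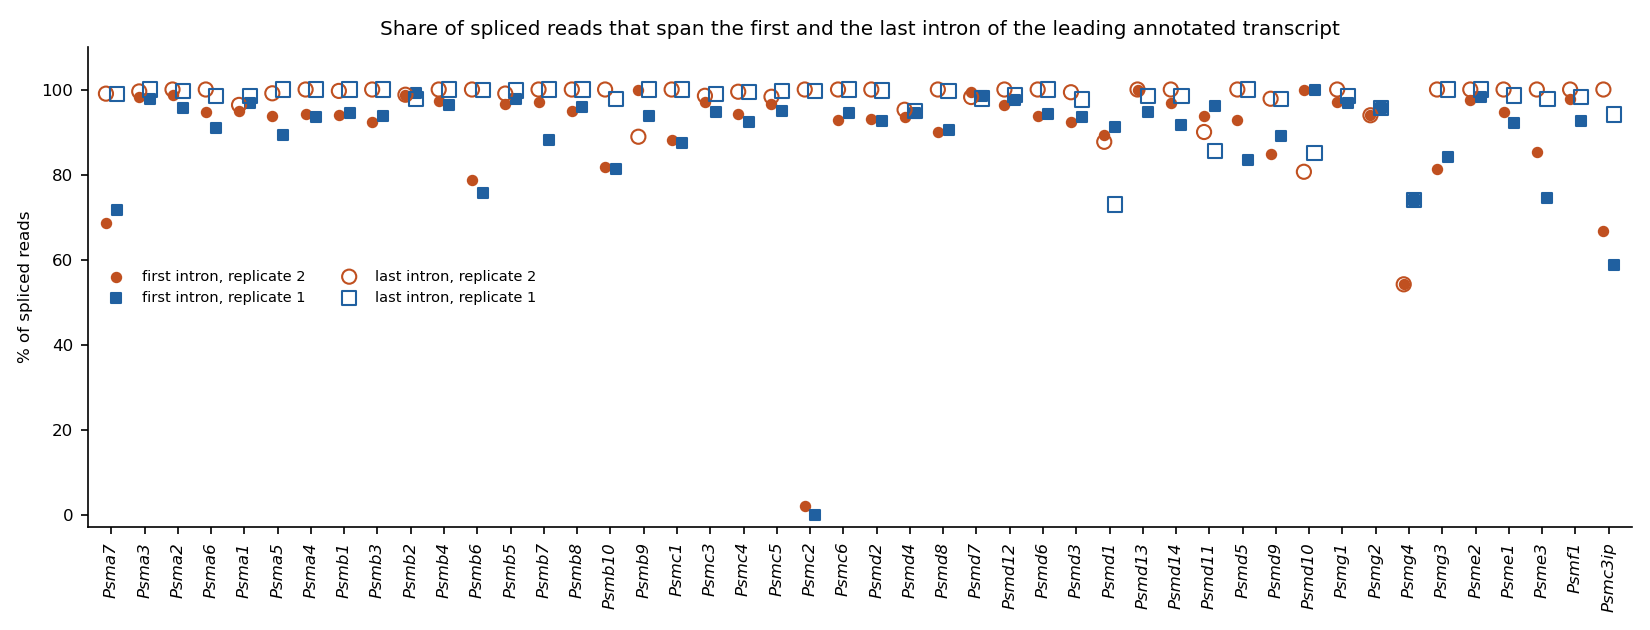
Percent of spliced reads that span the first intron (filled) and the last intron (open) of the leading annotated transcript of each tested gene, in replicate 2 (circles) and replicate 1 (squares). Psmc2 lies at 2.11% and 0% for the first intron, and the median over the 46 genes is 93.9% for the first and 99.1% for the last.

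A main transcript led in nearly all members. Of 42 genes with at least 20 whole-chain reads in each library, 29 had 90% or more of them on the leading chain in both, and all 42 leading chains were annotated as protein-coding. A second chain reached 10% in both libraries in 4 of the 42, Psmd4, Psmg4, Psmb6 and Psmd10, or 9.52%, against 24.8% of all genes of that depth. The leading share was called between the libraries in 1.15% of genes (Fisher's exact test, adjusted over all genes) and in 0 of the 17 members tested, of which 0 had an unadjusted p under 0.05.

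Psmd4 was the member that used 2 transcripts almost equally. Psmd4-202 had 105 of 214 whole-chain reads in replicate 2, 49.1% (42.2 to 56.0), and 215 of 445 in replicate 1, 48.3% (43.6 to 53.1). Psmd4-201 had 95 reads, 44.4% (37.6 to 51.3), and 193, 43.4% (38.7 to 48.1). They differ by 9 bases at the end of exon 7 of 10, where the farther of 2 splice donors adds GTGAAAGAG, in frame, to Psmd4-201. Over every read that spans the site, the longer form was 109 of 229 in replicate 2, 47.6% (41.0 to 54.3), and 218 of 463 in replicate 1, 47.1% (42.5 to 51.7), a mean of 47.3 ± 0.363% (SD, n = 2). The 9 bases begin with GT, the letters of a splice donor. The gene as a whole had 234 reads in replicate 2 against 484 in replicate 1, while the balance of the 2 forms differed by less than its counting error.

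Other second transcripts differed from the leading one in frame, in their ends or by an intron. Psmg4-201 lacks the 76 bases of exon 2, which is not a multiple of 3. It held 11 of 24 spanning reads in replicate 2, 45.8% (25.6 to 67.2), and 5 of 22 in replicate 1, 22.7% (7.82 to 45.4), with intervals that overlap. Psmd10-202 lacks the 79 bases printed above, which begin with GT, and held 6 of 31 reads in replicate 2, 19.4% (7.45 to 37.5), and 9 of 60 in replicate 1, 15.0% (7.10 to 26.6). The second Psmb6 chain, Psmb6-202, had 49 reads, 17.3% (13.1 to 22.2), and 96, 21.2% (17.6 to 25.3). Its only intron is also the last intron of Psmb6-201, so reads that reach no farther than that intron match both. In Psme1, Psme1-210 holds every intron of the leading chain and 1 more, at chr14:55578249-55578533. It held 8 reads, 7.48% (3.28 to 14.2), and 14, 7.14% (3.96 to 11.7). Psmd11-214, whose chain lacks only the last intron of Psmd11-201, of 115 bases, held 7 reads, 9.21% (3.78 to 18.1), and 17, 13.3% (7.93 to 20.4). Whether it keeps that intron or ends before it was not read from the chain.

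**Figure D5:**
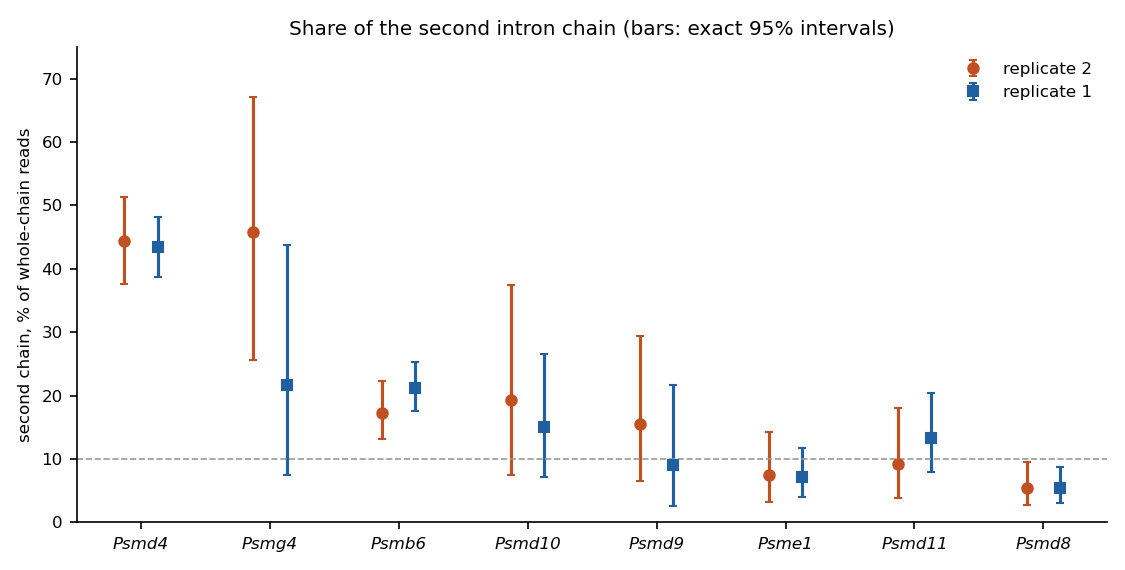
Share of the second chain of introns among the whole-chain reads of 8 genes, in replicate 2 (circles) and replicate 1 (squares) with exact 95% intervals. Psmd4 lies at 44.4% and 43.4%, and the dashed line marks the level of 10%, which Psmd4, Psmg4, Psmb6 and Psmd10 pass in both libraries.

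Some chains were not in the annotation. In Psmd8 a chain joined the end of exon 1 to a site inside exon 4, with 11 of 205 spanning reads in replicate 2, 5.37% (2.71 to 9.40), and 15 of 283 in replicate 1, 5.30% (3.00 to 8.59). It lacks the 210 bases printed in capitals, which are the 73 of exon 2, the 103 of exon 3 and the first 34 of exon 4, and keeps the frame with 70 codons fewer. The lost stretch ends with AG, the letters of a splice acceptor, and the same 2 bases end exon 1. In Psmd9 a chain without exon 2, 103 bases that are not a multiple of 3, had 7 of 46 spanning reads in replicate 2, 15.2% (6.34 to 28.9), and 4 of 45 in replicate 1, 8.89% (2.48 to 21.2). In Psmd5 a chain without the 145 bases of exon 2 had 2 of 54 whole-chain reads in replicate 2, 3.70% (0.452 to 12.7), and 11 of 103 in replicate 1, 10.7% (5.45 to 18.3). An unannotated chain of Psme3 that holds 75 more exonic bases had 0 of 24 whole-chain reads in replicate 2 (0 to 14.2%) and 5 of 39 in replicate 1, 12.8% (4.30 to 27.4).

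Chains that GENCODE labels as targets of nonsense-mediated decay were rare. Psma3-201 had 10 reads in replicate 2, 4.57% (2.21 to 8.24) of whole-chain reads, and 17 in replicate 1, 5.48% (3.23 to 8.64). Psma3-206 had 3 and 6 reads, 1.37% (0.283 to 3.95) and 1.94% (0.714 to 4.16). Psmc5-202, which keeps an intron of 78 bases, had 0 of 169 reads in replicate 2 (0 to 2.16%), against 8 of 263 in replicate 1, 3.04% (1.32 to 5.91). An unannotated chain of Psmc4 that keeps an intron of 142 bases, and so has no such label, had 4 and 10 reads, 2.22% (0.609 to 5.59) and 3.44% (1.66 to 6.23).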

How the data were processed

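Each library has a deposited table of read counts per transcript model and a transcript annotation on mm10 built on GENCODE M21, per the file headers. The authors' counts are unscaled whole numbers of reads, with model classes named as by the TALON program. For the aligner, program versions and read filters, nothing is stated in the sources used here. Tests of the libraries' reads do not compare animals. Reads were summed per gene over every class, and chains of introns were rebuilt from the deposited annotations. A chain called Known, NIC or NNC in either library counted in both. Log2 ratios add 0.5 reads. Gene spans and transcript sequences are from GENCODE M21, whose spans are longer than the deposited gene lines for many genes.

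All members were kept, those with fewer reads than the minimum outside the tests. Full statistics were meant for the 3 members of highest mean CPM in each role, all members of roles of 5 or fewer, and members with a call or a second chain in use. The members and lists were chosen with earlier results of these data known. Python 3.11.15, pandas 2.3.3, scipy 1.17.1, matplotlib 3.10.9, blastn 2.17.0, R 4.3.3, edgeR 4.0.16 (TMM, exact test) and DESeq2 1.42.0 (size factors) were used. The tests were checked on simulated reads that held only counting error and planted changes. That check does not cover spread between animals or in tissue makeup. Alternatives were the scalings, read classes, minimum reads, a 1.5-fold limit, an assumed coefficient of variation, and chain thresholds. Values of the other called gene of class I presentation and its control are not reported here.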

Additional observations from a re-analysis of the deposited data

How the results depend on the processing

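By total gene reads 28 of 46 members were lower and 0 higher in replicate 2, beside 1646 and 790 of 9211 genes. TMM and DESeq2 scaling each gave 7 lower members, beside 643 and 656 lower genes. Spike-in scaling gave 2 lower and 4 higher, beside 170 and 2071 genes. A ratio of at least 1.5-fold left 11 lower, beside 1213 genes. The assumed coefficient of variation left 0 called, beside 67 genes lower and 446 higher, with 3 members at an unadjusted p under 0.05. Without Genomic reads 28 of 46 tested members were lower, beside 1657 of 8754 genes. With Known reads alone 24 of 44 were lower, beside 1376 of 7358 genes. With no minimum of reads 24 of 50 were lower, beside 1423 of 18111 genes. With a minimum of 10 it was 26 of 47, beside 1632 of 11279 genes. The median log2 ratio of -0.49 was -0.24 under TMM and DESeq2 and 0.10 under spike-ins, where the share of higher among all calls was 63.0%, 62.1% and 92.4%, against 32.4% by total gene reads. Under spike-in scaling 18 ratios with a call on either scale turned positive: Psmc3 0.10, Psmd2 0.12, Psmb1 0.23, Psmd11 0.039, Psmb6 0.092, Psmc5 0.10, Psmd12 0.43, Psmc1 0.031, Psmd6 0.060, Psmc6 0.041, Psmb7 0.034, Psma7 0.050, Psmb2 0.016, Psmc4 0.038, Psmd7 0.0042, Psma3 0.18, Psmb3 0.21 and Psme2 0.13. The cause was not tested. A second chain was in use in 4 of 42 members, beside 24.8% of all genes of that depth. At a limit of 20% it was 2, beside 12.0% of all genes, and at 5% it was 8, beside 37.4%. Without replicate 1 it was 5, beside 30.6% of all genes, and without replicate 2 it was 7, beside 31.0%. The share of gene reads ran from 0.637 to 0.899% and the inducible share from 11.2 to 14.7% over single libraries. With Known reads only, the mean inducible share was 10.9%, against 12.9% with every class. Chain calls stayed at 0. No paired analysis was possible because the labels give a single group with 1 library per replicate number. Depth limits Psmb9, Psmg3, Psmg4, Psme4, Psme2b and Psmc3ip.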
